A study of Homo sapiens with 12 samples.

Results

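The mitochondrial ribosomal protein genes were examined in A549 cells, a human lung adenocarcinoma line, after GOLM1 was silenced with either of 2 siRNAs. Members were chosen by name, from the symbols MRPL and MRPS followed by a number, with at least 10 counts in at least 4 libraries. Of 78 rows with such a symbol, 75 were members, 46 large subunit genes (MRPL) and 29 small subunit genes (MRPS), among 57773 genes in the count table. The 3 rows left out were both rows of MRPL30, with at most 3 counts in a library, and a second row of MRPS17, with at most 7. The groups were cells given siGOLM1-1, cells given siGOLM1-2 and control cells given a non-targeting siRNA. Each siRNA was used at 50 nM, cells were harvested 72 h later, and every group had 4 libraries. All groups share the cell line, the reverse transfection and the transfection reagent, and an untransfected group was not analysed here. The labels call the libraries biological replicates but name no separate cultures, so that the tests measure the spread between these libraries. RNA was measured, not protein or translation.

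Mitochondria make a small set of respiratory chain proteins on their own ribosome. The ribosomal RNAs come from mitochondrial DNA, while every protein of the ribosome is encoded in the nucleus, made in the cytosol and imported. The small subunit binds the messenger RNA and reads the code, and the large subunit joins the amino acids and attaches the ribosome to the inner membrane. Some of the proteins descend from bacterial ribosomal proteins and others are found only in mitochondria. A few carry the name of the wrong subunit, since MRPS18A and MRPS30 sit in the large subunit, and MRPS36 is now assigned to the alpha-ketoglutarate dehydrogenase complex.

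Promoters of nuclear genes for mitochondrial proteins are known for sites of the ETS family factor GABP, of NRF1 and of YY1. RefSeq promoters on GRCh38.p14, from 250 bases before to 50 after each start, matched 66 of the 75 members by symbol. The ETS letters CCGGAAG, read on both strands, were in 28 of them (42.4%), against 12.2% of 27305 genes. The YY1 letters AAGATGGCG were in 13 members (19.7%), against 2.14% of genes. A 10-base NRF1 motif, shown in capitals for MRPL34 and MRPL45, was in 7 (10.6%), against 6.98%. All 3 motifs were read on both strands. The ETS and YY1 letters can share bases, since one ends and the other begins with AAG, and a promoter can hold more than one motif. The 6 windows of 30 bases that follow are from members whose levels are described later, and all lie before the RefSeq start. They show what such a match looks like in members called against control. The windows of MRPS10 and MRPS12 overlap an exon of their own gene in GENCODE release 29. MRPS10 and MRPL3 were lower with both siRNAs, MRPS12 was lower with siGOLM1-1 and MRPL47 was lower with siGOLM1-2. Of the 2 genes with the NRF1 motif, MRPL34 was higher with both siRNAs and MRPL45 was lower with siGOLM1-2. Capitals mark the matched letters. The windows are chr6:42217865-42217894 on the minus strand, chr19:38930924-38930953 on the plus strand, chr3:131502985-131503014 and chr3:179604659-179604688 on the minus strand, and chr19:17305623-17305652 and chr17:38296968-38296997 on the plus strand.
MRPS10: ccgctgtaaccCCGGAAGcaatcctgagag
MRPS12: ctgcacggatagcgcCCGGAAGaggctaga
MRPL3: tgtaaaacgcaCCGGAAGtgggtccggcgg
MRPL47: ggcttgagacgCCGGAAGtgacgctatcgt
MRPL34: agataatgccttgtGCGCACGCGCttgctc
MRPL45: gttgtctccctGCGCACGCGCggccgtact
Among members with a matched promoter, the ETS letters were in 6 of 18 lower with siGOLM1-1 and 18 of 40 not called, and in 9 of 23 lower with siGOLM1-2 and 17 of 39 not called. With siGOLM1-1, the YY1 letters were in 5 of 18 lower and 7 of 40 not called, and the NRF1 motif in 0 and 6. With siGOLM1-2, the YY1 letters were in 4 of 23 lower and 8 of 39 not called, and the NRF1 motif in 4 and 2. Of higher members, the ETS letters were in 4 of 8 with siGOLM1-1 and 2 of 4 with siGOLM1-2, and YY1 and NRF1 in 1 each. These differences were not tested. A match is a description of letters and not a measured binding site.

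GOLM1, the Golgi membrane protein that the siRNAs target, was at 38.9, 38.7, 38.8 and 37.5 CPM (counts scaled by library size) in the siGOLM1-1 libraries, 47.2, 44.7, 44.6 and 53.4 CPM in the siGOLM1-2 libraries and 372, 378, 371 and 345 CPM in the control libraries. Its log2 fold change was -3.25 ± 0.07 (SE) with siGOLM1-1 and -2.95 ± 0.07 with siGOLM1-2, with adjusted p of 4.97e-12 and 1.57e-11 in edgeR's quasi-likelihood test. Library totals ran from 41617042 to 71344718 counts. The summed level of 8 epithelial and A549 marker genes was 7994 to 8983 CPM with siGOLM1-1, 11870 to 12241 CPM with siGOLM1-2 and 10313 to 12639 CPM in control. Markers of other cell types, 11 genes with a row, summed to 50.6 to 92.7 CPM with siGOLM1-1, 27.6 to 41.8 CPM with siGOLM1-2 and 33.2 to 74.0 CPM in control, most of it COL1A1, and the leukocyte markers PTPRC and CD3E had at most 2 counts in any library. The part of these markers in the results on ribosomal proteins was not tested. In bulk libraries fewer cells of a type and less RNA per cell cannot be told apart. The control libraries deviated in pairs. Members were higher in control replicates 3 and 4 than in replicates 1 and 2, with a median log2 ratio of 0.10 and 61 of 75 members above 0, against a median of -0.00 over all genes tested. The labels name no batch behind this split, so that comparisons with control are also given against each pair.

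All 75 members were among the 17532 genes tested, and a gene was called at an adjusted p under 0.05. With siGOLM1-1, 8 members were higher than control, 20 were lower and 47 were not called. That is 37.3% of members called, against 47.5% of all genes tested, with 23.7% of all genes higher and 23.8% lower. With siGOLM1-2, 5 members were higher, 25 were lower and 45 were not called, so that 40% of members were called against 45% of all genes, with 21.8% of all genes higher and 23.2% lower. Both shares lay below that of all genes, and 26.7% of members were called lower with siGOLM1-1 and 33.3% with siGOLM1-2. The changes were small: the median absolute log2 fold change of members was 0.19 with siGOLM1-1 and 0.17 with siGOLM1-2, against 0.35 and 0.33 over all genes tested. Since both comparisons use the same control libraries, they are not independent of each other.

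By subunit, 1 small subunit gene was higher, 8 were lower and 20 were not called with siGOLM1-1, with a median log2 fold change of -0.17. Of the large subunit genes, 7 were higher, 12 were lower and 27 were not called, with a median of -0.04, while all genes tested had a median of -0.01. With siGOLM1-2, no small subunit gene was called higher, 8 were lower and 21 were not called, with a median of -0.07. Beside that count of 0 in edgeR, 3 were higher at an unadjusted p under 0.05, DESeq2 called 2 and limma called 0. The large subunit genes then had 5 higher, 17 lower and 24 not called, with a median of -0.04 beside -0.01 for all genes. Against control replicates 1 and 2 alone, siGOLM1-1 had 6 members higher and 13 lower, with medians of 0.02 for the large and -0.076 for the small subunit, and siGOLM1-2 had 5 higher and 12 lower, with medians of 0.01 and 0.038. Against control replicates 3 and 4 alone, siGOLM1-1 had 3 higher and 22 lower, with medians of -0.09 for the large and -0.21 for the small subunit, and siGOLM1-2 had 5 higher and 22 lower, with medians of -0.10 and -0.15. With library totals as the only scaling, siGOLM1-1 had 4 members higher and 29 lower, 14 of the lower ones small subunit genes, and siGOLM1-2 had 11 higher and 17 lower, with medians of 0.04 for the large and 0.00 for the small subunit. That scaling shifted the median of all genes by -0.05 with siGOLM1-1 and 0.08 with siGOLM1-2. Leaving out control replicate 3 left 14 lower calls with siGOLM1-2, 8 of them large subunit genes. Leaving out siGOLM1-1 replicate 2, or control replicate 2, left 5 higher calls with siGOLM1-1. Leaving out each library in turn, 7472 to 8700 of all genes were called with siGOLM1-1 and 6904 to 8329 with siGOLM1-2. The member counts for control pairs and library totals are given without the share of all genes called in those fits.

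**Figure D1:**
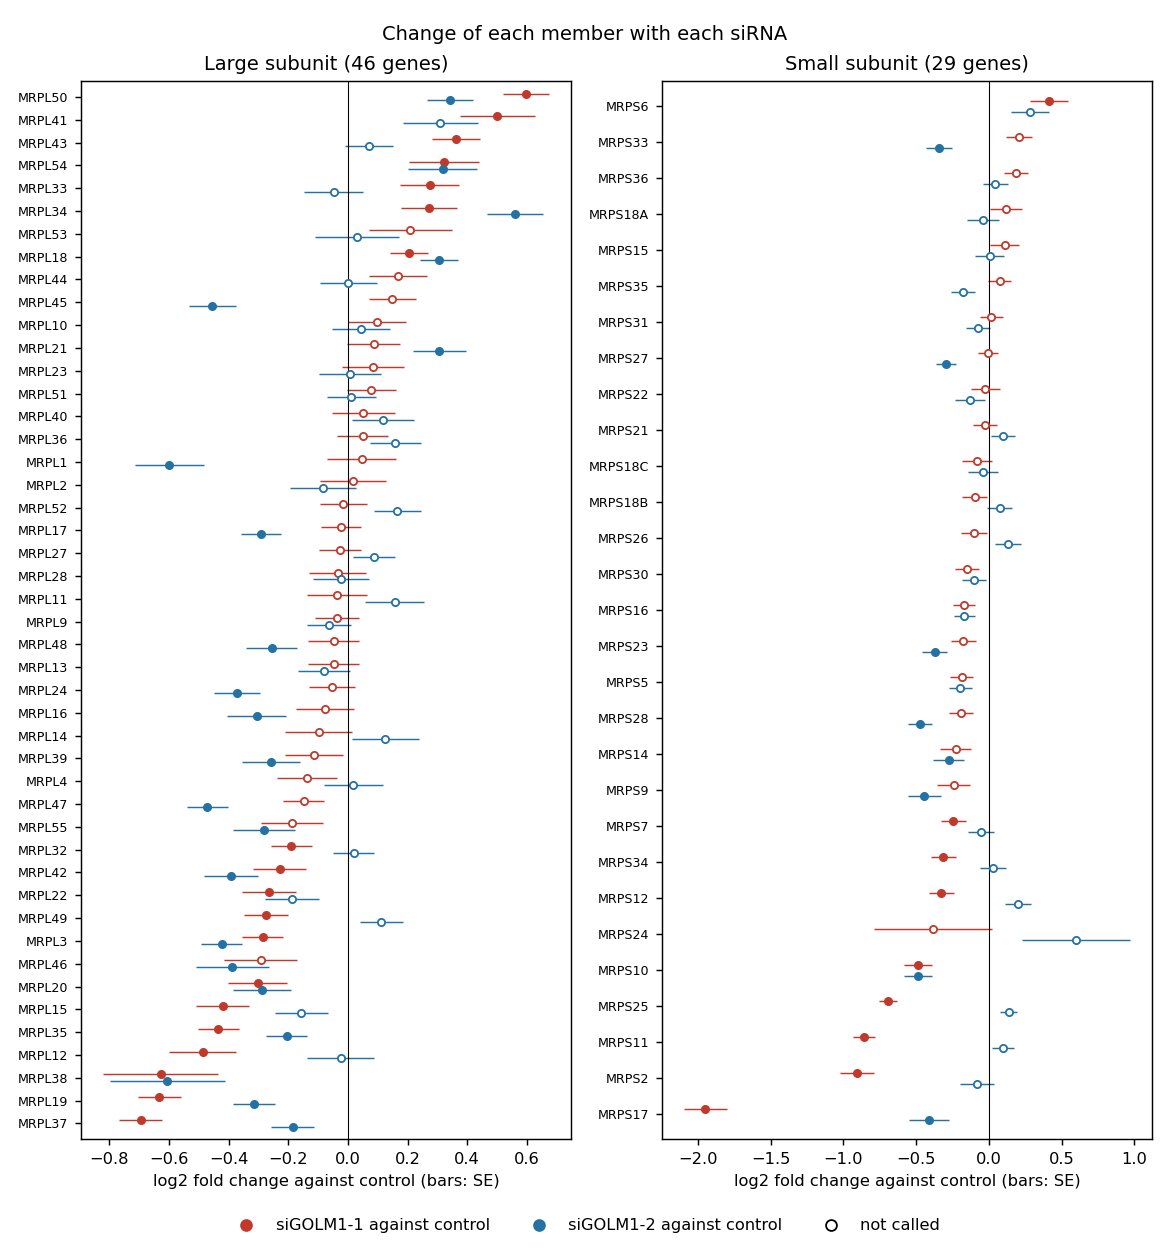
Log2 fold change of each member with siGOLM1-1 (red) and siGOLM1-2 (blue) against control, with bars of 1 SE; filled points were called at an adjusted p under 0.05. The left panel holds the 46 large and the right panel the 29 small subunit genes, ordered by the siGOLM1-1 value, and MRPS17, MRPS2, MRPS11 and MRPS25 stand at its low end in the small subunit, from -0.69 to -1.95.

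The largest changes in the small subunit came with siGOLM1-1 and were in MRPS17, MRPS2, MRPS11 and MRPS25. MRPS17 encodes a counterpart of the bacterial protein S17. It was at 1.25, 1.98, 1.56 and 1.40 CPM with siGOLM1-1, 4.92, 4.49, 4.58 and 3.94 CPM with siGOLM1-2 and 5.86, 5.77, 6.48 and 5.72 CPM in control. The siGOLM1-1 libraries lay below all others, and the siGOLM1-2 libraries lay between them and control without overlap. The change was -1.95 ± 0.15 (log2, SE; adjusted p = 2.11e-07) with siGOLM1-1 and -0.41 ± 0.14 (adjusted p = 0.0247) with siGOLM1-2. The siGOLM1-2 call was lost without siGOLM1-2 replicate 2 or 4 or control replicate 3, with values from -0.41 to -0.35. In GENCODE release 29 its exons overlap NIPSNAP2 on the same strand, which was not called with siGOLM1-1 (log2 fold change 0.05, adjusted p = 0.603, listed as GBAS in the count table), and a second MRPS17 row exists, so that its count is less certain than the others.

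MRPS2, the counterpart of bacterial S2, was at 42.5, 49.2, 49.4 and 48.8 CPM with siGOLM1-1, 78.3, 80.7, 75.4 and 103 CPM with siGOLM1-2 and 73.5, 81.7, 103 and 98.4 CPM in control. Every siGOLM1-1 library was below every other library, while siGOLM1-2 and control overlapped. Its log2 fold change was -0.91 ± 0.12 (SE; adjusted p = 3.12e-05) with siGOLM1-1 and -0.08 ± 0.12 (adjusted p = 0.607) with siGOLM1-2. MRPS11, the counterpart of bacterial S11, which lies on the platform near the messenger RNA exit, had 35.9, 38.9, 32.8 and 34.03 CPM with siGOLM1-1, 68.5, 68.5, 62.8 and 75.1 CPM with siGOLM1-2 and 60.4, 61.9, 68.9 and 65.7 CPM in control. Again only the siGOLM1-1 libraries stood apart, at -0.86 ± 0.08 against control (adjusted p = 1.08e-06), with 0.10 ± 0.08 for siGOLM1-2 (adjusted p = 0.318). In GENCODE release 29 the exons of MRPS11 overlap AC013489.3 on the other strand, and the change of AC013489.3 is not given here. MRPS11 shares a divergent start with MRPL46, 33 bases apart on chromosome 15 and on opposite strands. MRPL46 had a log2 fold change of -0.29 ± 0.12 (SE; adjusted p = 0.0632) with siGOLM1-1 and -0.39 ± 0.12 (adjusted p = 0.0194) with siGOLM1-2, and 0.10 ± 0.12 with siGOLM1-1 against siGOLM1-2 (adjusted p = 0.537).

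MRPS25 is a small subunit protein with no bacterial counterpart. Its levels were 33.9, 31.02, 31.6 and 32.4 CPM with siGOLM1-1, 55.7, 55.6, 57.4 and 60.7 CPM with siGOLM1-2 and 50.2, 53.6, 50.8 and 54.1 CPM in control. The siGOLM1-1 libraries were the lowest of the 12 and the siGOLM1-2 libraries all lay above control, with log2 fold changes of -0.69 ± 0.06 (SE; adjusted p = 9.07e-07) and 0.14 ± 0.06 (adjusted p = 0.0835). The exons of MRPS2 and MRPS25 overlap C9orf116 and NR2C2 on the other strand, neither of which was called with siGOLM1-1 (log2 fold changes -0.04 and 0.03, adjusted p 0.808 and 0.874). MRPS10, the counterpart of bacterial S10, was lower with each siRNA by a like amount. It had 29.8, 34.1, 36.2 and 27.5 CPM with siGOLM1-1, 28.6, 32.7, 30.9 and 35.7 CPM with siGOLM1-2 and 44.7, 42.8, 48.7 and 42.97 CPM in control. Both siRNA groups were below control without overlap, at -0.49 ± 0.10 (adjusted p = 0.000874) and -0.49 ± 0.10 (adjusted p = 0.00103).

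Of the other small subunit genes lower with siGOLM1-1, MRPS12 encodes the protein at the decoding centre. It had 87.7, 111, 90.4 and 90.6 CPM with siGOLM1-1, 135, 134, 124 and 154 CPM with siGOLM1-2 and 114, 115, 120.0 and 127 CPM in control. The siGOLM1-1 libraries were below both other groups, and the change was -0.33 ± 0.09 (log2, SE; adjusted p = 0.00722). The remaining lower members were MRPS34 at -0.31 and MRPS7 at -0.24 (adjusted p 0.0102 and 0.0344). MRPS6, the counterpart of bacterial S6, was the 1 small subunit gene called higher. It had 23.8, 24.8, 28.1 and 20.96 CPM with siGOLM1-1, 23.1, 23.1, 21.96 and 21.04 CPM with siGOLM1-2 and 22.7, 20.1, 15.8 and 14.7 CPM in control, with groups that overlapped. Its change was 0.41 ± 0.13 (adjusted p = 0.0168) with siGOLM1-1 and 0.28 ± 0.13 (adjusted p = 0.0885) with siGOLM1-2, and the siGOLM1-1 call was lost without siGOLM1-1 replicate 3 or control replicate 3 or 4, with values from 0.32 to 0.35. In GENCODE release 29 the exons of MRPS6 overlap SLC5A3 and AP000317.2 on the same strand, so that its count is less certain. The changes of these overlapping genes are not given here.

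**Figure D2:**
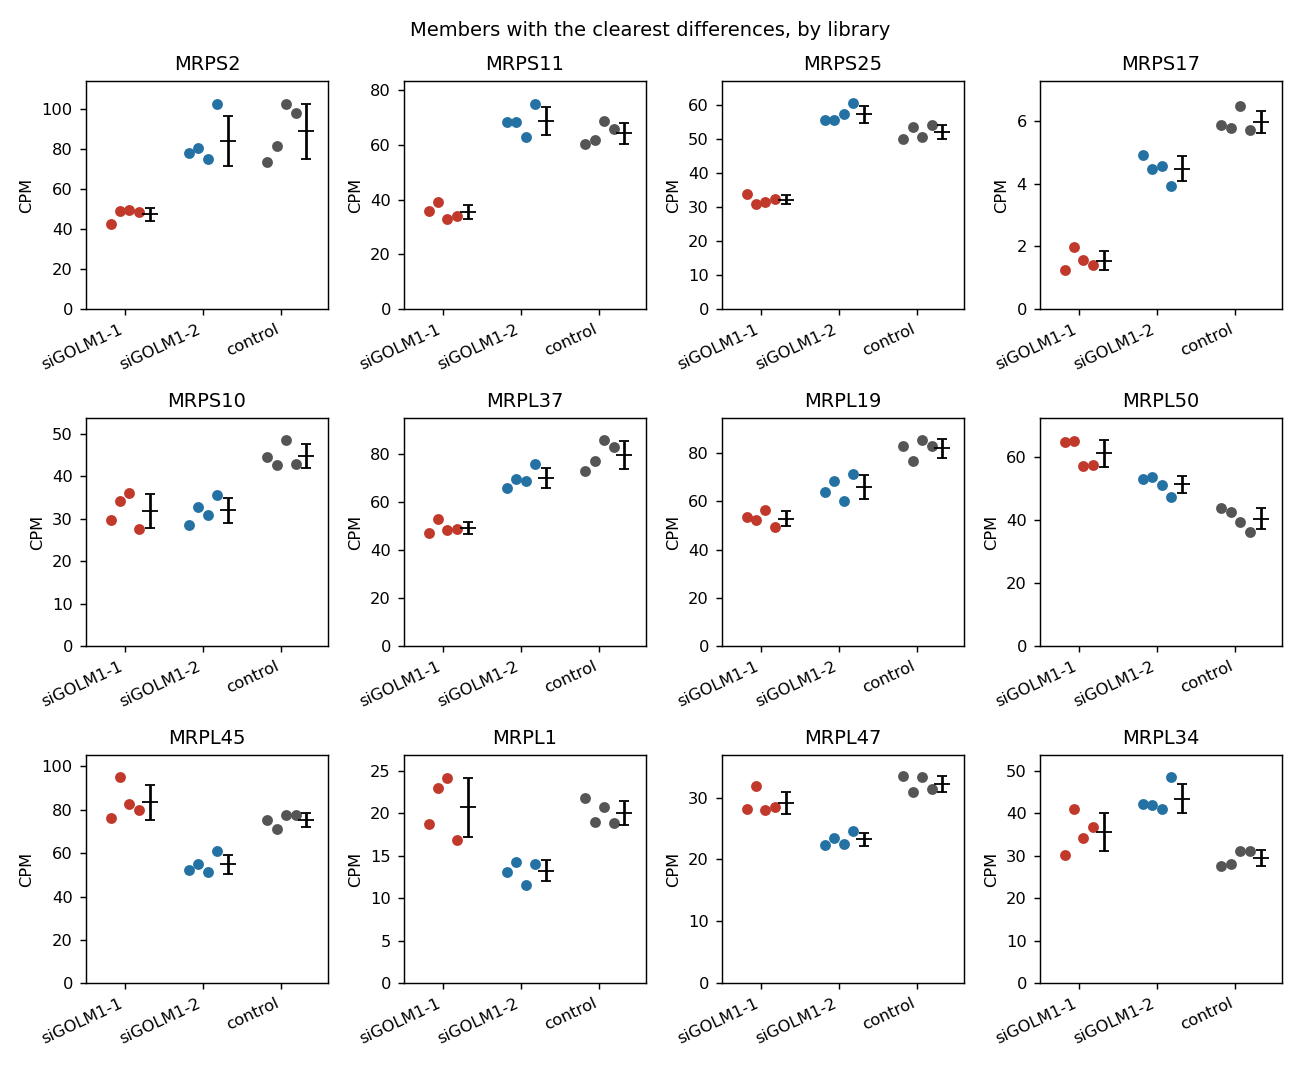
Level (CPM, linear axes from 0) of 12 members in each library with siGOLM1-1 (red), siGOLM1-2 (blue) and control (grey), with the group mean and 1 SD beside the points. MRPS2, MRPS11 and MRPS25 are low with siGOLM1-1 alone, MRPL45 and MRPL1 are low with siGOLM1-2 alone, and MRPS10 is low with both. MRPL47 is lowest with siGOLM1-2, and its siGOLM1-1 libraries lie below control except for replicate 2.

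In the large subunit, the members with the smallest p for siGOLM1-1 were MRPL37, MRPL19, MRPL50, MRPL35 and MRPL15. MRPL37, a protein found only in mitochondrial ribosomes, was at 47.1, 53.1, 48.3 and 48.7 CPM with siGOLM1-1, 65.99, 69.8, 68.996 and 75.9 CPM with siGOLM1-2 and 72.9, 77.2, 86.03 and 83.1 CPM in control. The siGOLM1-1 libraries were the lowest, and siGOLM1-2 overlapped control. It changed by -0.70 ± 0.07 (log2, SE; adjusted p = 4.2e-06) with siGOLM1-1 and by -0.19 ± 0.07 (adjusted p = 0.0487) with siGOLM1-2, a call that was lost without any of 8 libraries in turn (siGOLM1-1 replicates 3 and 4, siGOLM1-2 replicates 1 to 3 and control replicates 2 to 4), with values from -0.19 to -0.15. Its exons overlap those of SSBP3 on the other strand, which was higher with siGOLM1-1 (log2 fold change 0.85, adjusted p = 4.94e-06).

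MRPL19, the counterpart of bacterial L19 at the face where the subunits meet, had 53.4, 52.4, 56.4 and 49.2 CPM with siGOLM1-1, 63.8, 68.4, 59.99 and 71.3 CPM with siGOLM1-2 and 82.96, 76.6, 85.4 and 82.8 CPM in control. The groups were in that order with no overlap between any of them, at -0.63 ± 0.07 (adjusted p = 8.33e-06) and -0.32 ± 0.07 (adjusted p = 0.00251) against control. GCFC2, whose exons overlap it on the other strand, was also lower with siGOLM1-1 (log2 fold change -0.29, adjusted p = 0.0148). MRPL35, the counterpart of bacterial L35, had 37.8, 38.2, 39.3 and 33.8 CPM with siGOLM1-1, 43.6, 44.8, 41.2 and 45.2 CPM with siGOLM1-2 and 50.04, 48.8, 54.3 and 48.5 CPM in control. Its groups did not overlap either, with changes of -0.44 ± 0.07 (adjusted p = 0.000154) and -0.21 ± 0.07 (adjusted p = 0.0245). The siGOLM1-2 call was lost without siGOLM1-2 replicate 1 or 3 or control replicate 2 or 3, with values from -0.21 to -0.17. MRPL15, the counterpart of bacterial L15, had 49.1, 65.6, 54.2 and 52.2 CPM with siGOLM1-1, 62.8, 65.7, 64.5 and 72.3 CPM with siGOLM1-2 and 73.7, 67.7, 78.7 and 75.6 CPM in control. With siGOLM1-1 all libraries were below control (-0.42 ± 0.09, adjusted p = 0.00158), and with siGOLM1-2 they overlapped it (-0.16 ± 0.09, adjusted p = 0.171).

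MRPL50, a protein found only in mitochondrial ribosomes, moved up. Its levels were 64.6, 64.9, 56.9 and 57.5 CPM with siGOLM1-1, 52.9, 53.5, 50.9 and 47.3 CPM with siGOLM1-2 and 43.6, 42.4, 39.2 and 36.2 CPM in control. No group overlapped another, and the changes were 0.60 ± 0.08 (log2, SE; adjusted p = 3.23e-05) and 0.34 ± 0.08 (adjusted p = 0.00273). MRPL41 and MRPL43, large subunit proteins found only in mitochondria, were also higher with siGOLM1-1, at 0.50 ± 0.13 and 0.36 ± 0.08 (adjusted p 0.00498 and 0.0021). Smaller rises were called for MRPL54 at 0.32, MRPL33 at 0.27, MRPL34 at 0.27 and MRPL18 at 0.20, with adjusted p from 0.0172 to 0.0346. MRPL12 forms the flexible stalk that recruits translation factors and is also reported to bind the mitochondrial RNA polymerase. It had 11.5, 15.6, 12.6 and 13.001 CPM with siGOLM1-1, 17.6, 18.01, 16.4 and 20.6 CPM with siGOLM1-2 and 16.2, 17.3, 19.04 and 21.2 CPM in control. Only the siGOLM1-1 libraries were below control, at -0.49 ± 0.11 (adjusted p = 0.0029).

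Under siGOLM1-2 the large subunit genes with the smallest p were MRPL47, MRPL3, MRPL34, MRPL45 and MRPL1. MRPL47, the counterpart of bacterial L29, had 22.4, 23.4, 22.6 and 24.6 CPM with siGOLM1-2, 28.1, 31.8, 28.04 and 28.4 CPM with siGOLM1-1 and 33.4, 30.9, 33.2 and 31.3 CPM in control. The siGOLM1-2 libraries were below all others, at -0.47 ± 0.07 against control (log2, SE; adjusted p = 9.6e-05), and siGOLM1-1 gave -0.15 ± 0.07 (adjusted p = 0.0898). MRPL1, the counterpart of the bacterial protein of the L1 stalk, had 13.1, 14.3, 11.6 and 14.02 CPM with siGOLM1-2, 18.8, 22.97, 24.2 and 16.9 CPM with siGOLM1-1 and 21.8, 18.9, 20.7 and 18.8 CPM in control. Here siGOLM1-2 stood apart (-0.60 ± 0.12, adjusted p = 0.000885) and siGOLM1-1 overlapped control (0.05 ± 0.11, adjusted p = 0.767).

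MRPL45, which helps to attach the ribosome to the inner membrane, had 52.4, 54.8, 51.5 and 61.2 CPM with siGOLM1-2, 76.4, 95.1, 82.7 and 79.7 CPM with siGOLM1-1 and 75.1, 70.9, 77.4 and 77.8 CPM in control. It was lower with siGOLM1-2 in every library, at -0.45 ± 0.08 (adjusted p = 0.000435), and not called with siGOLM1-1, at 0.15 ± 0.08 (adjusted p = 0.141). MRPL3, the counterpart of bacterial L3 beside the peptidyl transferase centre, had 73.4, 74.8, 69.3 and 82.3 CPM with siGOLM1-2, 79.5, 86.9, 86.9 and 76.4 CPM with siGOLM1-1 and 103, 100.5, 101 and 97.01 CPM in control. Both siRNA groups were below control, at -0.42 ± 0.07 (adjusted p = 0.000229) and -0.29 ± 0.07 (adjusted p = 0.00361). MRPL34, the counterpart of bacterial L34, rose: it had 42.2, 41.999, 40.9 and 48.6 CPM with siGOLM1-2, 30.1, 40.9, 34.3 and 36.8 CPM with siGOLM1-1 and 27.6, 28.04, 31.04 and 30.99 CPM in control. The siGOLM1-2 libraries were above control without overlap, at 0.56 ± 0.09 (adjusted p = 0.000308), and the siGOLM1-1 libraries overlapped it, at 0.27 ± 0.09 (adjusted p = 0.0292), a call lost without siGOLM1-1 replicate 2 or 4 or control replicate 1 or 2, with values from 0.20 to 0.26.

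The small subunit genes with the smallest p for siGOLM1-2 were MRPS28, MRPS10, MRPS23, MRPS27 and MRPS9, and all were lower. MRPS28, named as the counterpart of bacterial S1, had 10.2, 9.94, 10.1 and 9.07 CPM with siGOLM1-2, 11.1, 13.1, 12.04 and 11.5 CPM with siGOLM1-1 and 12.4, 13.4, 14.3 and 14.4 CPM in control. The siGOLM1-2 libraries were the lowest of the 12, at -0.47 ± 0.08 (log2, SE; adjusted p = 0.000506). MRPS23, found only in mitochondria, had 63.3, 68.6, 63.5 and 70.7 CPM with siGOLM1-2, 69.6, 89.9, 72.2 and 72.97 CPM with siGOLM1-1 and 86.8, 79.5, 93.04 and 84.7 CPM in control, which is -0.37 ± 0.09 with siGOLM1-2 (adjusted p = 0.00304) and -0.18 ± 0.09 with siGOLM1-1 (adjusted p = 0.106). Its siGOLM1-2 libraries did not overlap control. MRPS27, a pentatricopeptide repeat protein, had 106, 109.9, 103 and 118 CPM with siGOLM1-2, 129, 140.5, 137 and 126 CPM with siGOLM1-1 and 127, 126, 144 and 138 CPM in control. It fell with siGOLM1-2 (-0.29 ± 0.07, adjusted p = 0.00335) and had -0.00 ± 0.07 with siGOLM1-1 (adjusted p = 0.977). MRPS9, the counterpart of bacterial S9, had 25.5, 27.1, 24.8 and 30.2 CPM with siGOLM1-2, 27.04, 34.9, 29.8 and 32.2 CPM with siGOLM1-1 and 31.1, 32.5, 41.5 and 41.2 CPM in control. Its siGOLM1-2 libraries were below control, although by little at the nearest libraries, and the change was -0.44 ± 0.11 (adjusted p = 0.00577).

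The other large subunit genes lower with siGOLM1-2 moved by smaller amounts, apart from MRPL38. MRPL38, with at most 136 counts in a library, was called lower with both siRNAs. Its siGOLM1-2 change of -0.61 (log2) was the lowest of the large subunit. It ran from 1.52 to 1.92 CPM with siGOLM1-2, 1.15 to 2.31 CPM with siGOLM1-1 and 2.08 to 2.88 CPM in control. MRPL24, the counterpart of bacterial L24, had 73.03, 71.2, 72.2 and 67.9 CPM with siGOLM1-2, 86.9, 100.4, 78.3 and 88.9 CPM with siGOLM1-1 and 87.8, 85.8, 97.3 and 97.01 CPM in control. The siGOLM1-2 libraries were below both other groups, at -0.37 ± 0.08 against control (adjusted p = 0.00154). MRPL42, MRPL17, MRPL46, MRPL16 and MRPL48 also lay below control in every siGOLM1-2 library, at -0.39, -0.29, -0.39, -0.31 and -0.26 (log2). MRPL20, MRPL55 and MRPL39 were called at -0.29, -0.28 and -0.26 although their libraries overlapped control. MRPL18, the counterpart of bacterial L18 that binds the ribosome's RNA, rose. It had 65.6, 70.3, 62.1 and 71.8 CPM with siGOLM1-2, 59.7, 64.99, 65.3 and 61.4 CPM with siGOLM1-1 and 54.1, 55.9, 53.7 and 54.6 CPM in control. Both siRNA groups were above control without overlap, at 0.31 ± 0.06 (adjusted p = 0.00145) and 0.20 ± 0.06 (adjusted p = 0.0172). The other higher calls with siGOLM1-2 were MRPL21 at 0.31 and MRPL54 at 0.32, beside MRPL34 and MRPL50.

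The members that were not called were spread around 0, with the widest value in MRPS24. With siGOLM1-1 the 27 large subunit genes not called ran from -0.29 for MRPL46 to 0.21 for MRPL53 (log2 fold change), and the 20 small subunit genes from -0.38 for MRPS24 to 0.21 for MRPS33. With siGOLM1-2 the 24 large subunit genes not called ran from -0.19 for MRPL22 to 0.31 for MRPL41, and the 21 small subunit genes from -0.20 for MRPS5 to 0.60 for MRPS24, which had at most 18 counts in a library. A missed threshold does not show that a member was the same in both groups.

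Which members the siRNAs moved differently was tested directly. With siGOLM1-1 against siGOLM1-2, 12 members were higher, 16 were lower and 47 were not called. The share called was 37.3%, against 54.4% of all genes tested, with 27.9% of all genes higher and 26.5% lower. Of the large subunit genes 8 were higher and 8 lower, with a median log2 fold change of 0.03, and of the small subunit genes 4 were higher and 8 lower, with a median of -0.00. All genes tested had a median of 0.01. With library totals as the only scaling, which shifts the median of all genes by -0.13, 6 members were higher and 28 lower. The split over the whole family thus moved with the scaling, while 16 members were called in the same direction under all 23 alternatives.

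Among those 16, lower with siGOLM1-1 than with siGOLM1-2 were MRPS17 (-1.54 ± 0.14, log2, SE), MRPS11 (-0.96 ± 0.08), MRPS25 (-0.83 ± 0.06), MRPS2 (-0.83 ± 0.12), MRPS12 (-0.53 ± 0.09), MRPS34 (-0.34), MRPL37 (-0.51 ± 0.07), MRPL12 (-0.46), MRPL49 (-0.39 ± 0.07) and MRPL19 (-0.32). Higher with siGOLM1-1 were MRPL1 (0.64 ± 0.12), MRPL45 (0.60 ± 0.08), MRPS33 (0.55 ± 0.09), MRPL47 (0.32 ± 0.07), MRPL24 (0.32) and MRPS27 (0.29). Among them MRPS25 had the smallest adjusted p, 1.07e-07, and MRPL45 the smallest among those higher, 2.48e-05. MRPL49, a large subunit protein found only in mitochondria, had 59.2, 69.2, 58.4 and 58.5 CPM with siGOLM1-1, 75.2, 78.8, 77.9 and 88.6 CPM with siGOLM1-2 and 73.2, 73.2, 74.4 and 75.9 CPM in control, with the siGOLM1-1 libraries below all others. MRPS33, a small subunit protein found only in mitochondria, had 51.2, 61.6, 44.2 and 47.9 CPM with siGOLM1-1, 34.4, 35.4, 36.3 and 34.002 CPM with siGOLM1-2 and 47.4, 42.2, 45.5 and 42.4 CPM in control, with the siGOLM1-2 libraries below all others.

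The balance of the subunits was read from summed levels within each library. The scaling cancels in the ratio of the sums, but not in the sums themselves. The 29 small subunit genes summed to 1413, 1690.1, 1495 and 1458 CPM with siGOLM1-1, 1581, 1618, 1535 and 1779 CPM with siGOLM1-2 and 1655, 1629, 1810.1 and 1778 CPM in control. The 46 large subunit genes summed to 2101, 2555, 2159.6 and 2222 CPM with siGOLM1-1, 2166, 2208, 2089.9 and 2411 CPM with siGOLM1-2 and 2275, 2210.5, 2407 and 2389 CPM in control. With this scaling (TMM), both sums overlapped between all groups. With library totals as the only scaling, the small subunit sum ran from 1392 to 1585 CPM with siGOLM1-1. It then ran from 1617 to 1835 CPM with siGOLM1-2 and from 1628 to 1753 CPM in control, so that siGOLM1-1 lay below both. The large subunit sums still overlapped between all groups. Their ratio, large over small, was 1.49, 1.51, 1.44 and 1.52 with siGOLM1-1, 1.37, 1.36, 1.36 and 1.36 with siGOLM1-2 and 1.37, 1.36, 1.33 and 1.34 in control. Every siGOLM1-1 library thus had a higher ratio than every other library, with means of 1.49 ± 0.0353 for siGOLM1-1, 1.36 ± 0.00612 for siGOLM1-2 and 1.35 ± 0.0192 for control (SD, n = 4 each). No test was made of a sum over the members.

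MRPS17, MRPS25, MRPS11, MRPS2 and MRPS10 together made up -107.6 of the -204.0 CPM by which the small subunit mean with siGOLM1-1 lay below control, or 52.8%. MRPS2 alone made up 20.4%. Without these 5 genes, an alternative chosen after the data were seen, the ratio ran from 1.61 to 1.69 with siGOLM1-1, 1.60 to 1.61 with siGOLM1-2 and 1.57 to 1.60 in control. The siGOLM1-1 libraries then met the siGOLM1-2 range at its upper end and stayed above control. With MRPS18A and MRPS30 counted in the large subunit and MRPS36 left out, the ratio averaged 1.63 with siGOLM1-1, 1.48 with siGOLM1-2 and 1.47 in control, and the siGOLM1-1 libraries again lay above the rest.

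**Figure D3:**
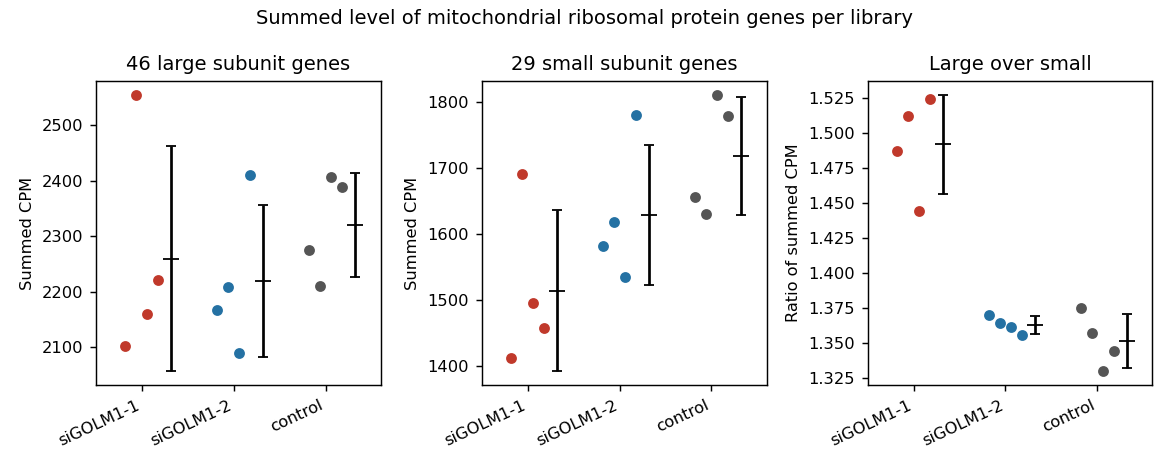
Summed CPM of the 46 large (left) and 29 small (middle) subunit genes and the ratio of the sums (right) in each library, with the group mean and 1 SD beside the points; the axes do not start at 0. The sums, scaled with TMM, overlap between groups, while the 4 siGOLM1-1 ratios, 1.44 to 1.52, lie above all siGOLM1-2 and control ratios.

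The 2 genes named for the wrong subunit, and MRPS36, had group ranges that overlapped control. MRPS18A had 24.2, 34.6, 28.1 and 31.2 CPM with siGOLM1-1, 25.8, 25.6, 25.2 and 29.3 CPM with siGOLM1-2 and 24.6, 25.3, 29.5 and 29.4 CPM in control. MRPS30 had 32.4, 32.4, 37.6 and 28.2 CPM with siGOLM1-1, 33.3, 34.4, 33.1 and 33.9 CPM with siGOLM1-2 and 38.9, 36.6, 34.98 and 34.2 CPM in control. MRPS36 had 28.97, 36.7, 31.4 and 30.2 CPM with siGOLM1-1, 28.4, 29.9, 26.3 and 30.7 CPM with siGOLM1-2 and 28.02, 26.5, 27.9 and 29.2 CPM in control. None of the 3 was called against control, and log2 fold changes ran from -0.15 to 0.19.

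Genes with and without a bacterial counterpart were set side by side. Of 16 small subunit genes with a bacterial counterpart, 1 was higher and 6 were lower with siGOLM1-1 (median -0.23), and 5 were lower and 11 not called with siGOLM1-2 (median -0.07). Of 10 found only in mitochondria, 2 were lower and 8 not called with siGOLM1-1 (median -0.06), and 3 were lower and 7 not called with siGOLM1-2 (median -0.10). The large subunit, with MRPS18A and MRPS30 counted in it, had 3 higher and 8 lower of 29 with a counterpart (median -0.05) and 4 higher and 4 lower of 19 without (median 0.05) under siGOLM1-1. Under siGOLM1-2 it had 3 higher and 10 lower with a counterpart (median -0.06) and 2 higher and 7 lower without (median 0.00). The share called ran from 20% to 43.8% over the classes with siGOLM1-1, beside 47.5% of all genes, and from 30% to 47.4% with siGOLM1-2, beside 45%. The difference between these classes was not tested.

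Members were also counted by whether the libraries of 2 groups overlapped. With siGOLM1-1 against control 19 members did not overlap, 4 above and 15 below, or 25.3% against 41% of all genes tested. With siGOLM1-2 against control there were 30, 7 above and 23 below, or 40% against 45.9% of all genes. Between the siRNAs there were 21, or 28% against 48.4%. One library widened the siGOLM1-1 group. Over members standardised across the 12 libraries, siGOLM1-1 replicate 2 had the highest mean (0.81 SD) and siGOLM1-1 replicate 1 the lowest (-0.73 SD), while control ran from -0.12 to 0.60 and siGOLM1-2 from -0.53 to 0.53. The share of counts from mitochondrial transcripts was lowest in siGOLM1-1 replicate 2, at 3.22%, and ran to 4.89% in that group, against 4.87% to 7.27% with siGOLM1-2 and 5.14% to 8.13% in control. Its part in the member levels was not tested.

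**Figure D4:**
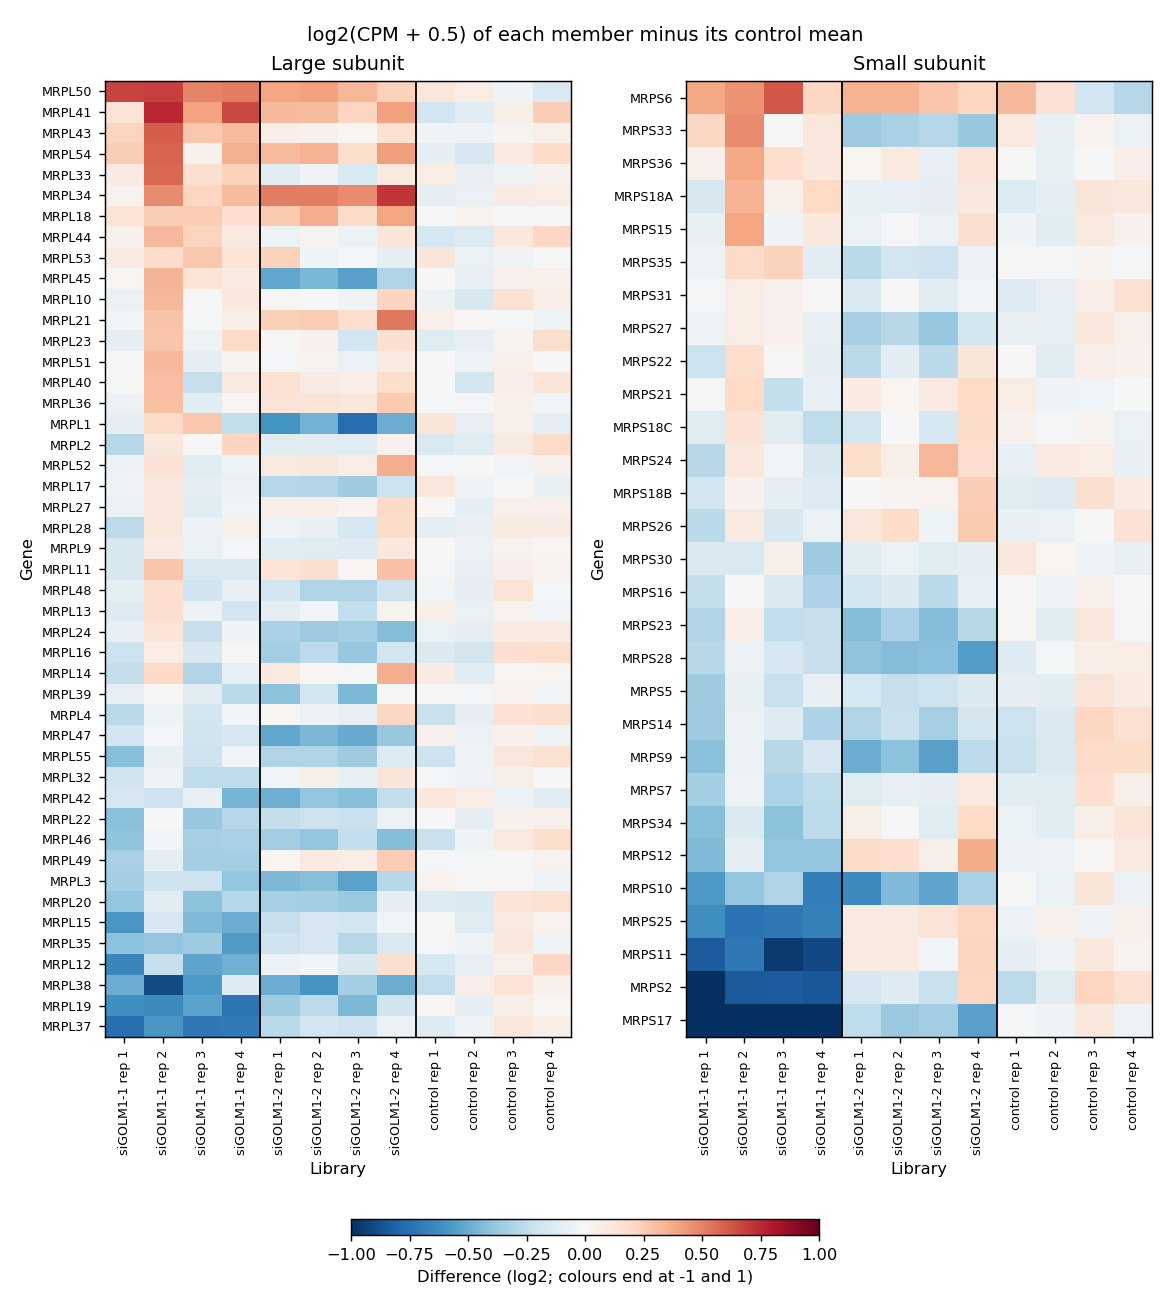
Level of each member in each library, as log2(CPM + 0.5) minus the mean of the 4 control libraries, for the large (left) and small (right) subunit; red is above and blue below the control mean, and colours end at -1 and 1. The siGOLM1-1 replicate 2 column is redder than the rest of its group over most of both panels, and the rows at the bottom of the small subunit are blue in all 4 siGOLM1-1 libraries.

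The profile of the family across libraries was compared with that of every other gene tested. Among the non-member genes most like the mean standardised member level over the 12 libraries were RPL11, a cytosolic ribosomal protein (Pearson r = 0.94), S100A16, a calcium-binding protein (0.93), NDUFA12, a subunit of respiratory complex I (0.93) and RPS3AP6, a ribosomal protein pseudogene (0.93). These points share libraries and depth, and the values are a description.

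Levels were compared between genes per length, as CPM per kilobase of GENCODE release 29 exon, for the 73 members found there by gene ID. The length was that of all merged exons, from 959 bases for MRPL14 to 16393 bases for MRPL42. The annotation used for counting is not known and may differ, which limits the ranking. In control the highest were MRPS34 at 105.8 ± 8.17, MRPL51 at 82.9 ± 2.34, MRPS26 at 75.1 ± 5.40, MRPL15 at 62.0 ± 3.88 and MRPL33 at 58.7 ± 2.95 CPM per kilobase (SD, n = 4). MRPS34 and MRPL51 traded the first place with siGOLM1-1, at 85.2 and 87.6 CPM per kilobase. MRPL38 was near the bottom with 0.71 ± 0.095 CPM per kilobase in control. MRPS24 was barely detected, at 0.0569, 0.226, 0.162 and 0.106 CPM with siGOLM1-1, 0.262, 0.203, 0.352 and 0.258 CPM with siGOLM1-2 and 0.140, 0.216, 0.212 and 0.141 CPM in control, with at most 18 counts in a library, and was not called against control. Its exons overlap URGCP-MRPS24 and those of MRPL38 overlap AC087289.3, each on the same strand, and how reads shared by such genes were counted is not known, which limits what these low values mean. Read counts of 40 members may be shared, because their exons overlap another gene, 15 on the same strand and 29 on the other. Among the 33 members without such overlap, 22 large subunit genes had 4 higher and 4 lower and 11 small subunit genes had 2 lower and the rest not called with siGOLM1-1. With siGOLM1-2 they had 4 higher and 9 lower in the large and 3 lower with the rest not called in the small subunit. Their medians (log2) with siGOLM1-1 were -0.02 for the large and -0.10 for the small subunit, beside -0.04 and -0.17 over all members. With siGOLM1-2 the medians were -0.06 and -0.07, beside -0.04 and -0.07. MRPS17, MRPS2, MRPS11 and MRPS25 all have such an overlap. In the same fit 47.5% of all genes were called with siGOLM1-1 and 45% with siGOLM1-2.

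Subunits with other symbols, chosen for their role, added 7 genes. With siGOLM1-1 1 was higher and 3 were lower, and with siGOLM1-2 2 were lower and 5 not called. The higher calls there were 0 in edgeR, also at an unadjusted p under 0.05, and 0 in DESeq2 and limma. The share called was 57.1% with siGOLM1-1 and 28.6% with siGOLM1-2, beside 47.5% and 45% of all genes. DAP3, the small subunit protein that binds GTP, had 67.1, 74.4, 70.4 and 71.1 CPM with siGOLM1-1, 122, 125, 116 and 137 CPM with siGOLM1-2 and 120.4, 112, 125 and 122 CPM in control. Only the siGOLM1-1 libraries were lower, at -0.76 ± 0.07 (log2, SE; adjusted p = 8.92e-07). MRP63, the large subunit protein now called MRPL57, had 33.1, 39.7, 33.3 and 35.7 CPM with siGOLM1-1, 20.7, 19.5, 20.4 and 20.4 CPM with siGOLM1-2 and 34.5, 36.1, 35.8 and 37.6 CPM in control. Here the siGOLM1-2 libraries were apart, at -0.83 ± 0.07 (adjusted p = 1.27e-06). PTCD3, a pentatricopeptide repeat protein of the small subunit, was lower with both, at -0.27 ± 0.07 with siGOLM1-1 and -0.72 ± 0.07 with siGOLM1-2, and CHCHD1 was lower with siGOLM1-1, at -0.36 ± 0.08 (adjusted p 0.00582, 3.79e-06 and 0.00169).

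Genes that build the ribosome were counted next. Of 27 assembly factors, 5 were higher and 10 were lower with siGOLM1-1, and 3 were higher and 8 were lower with siGOLM1-2, with medians of -0.04 and -0.08. That is 55.6% called with siGOLM1-1 and 40.7% with siGOLM1-2, beside 47.5% and 45% of all genes. RPUSD4, a pseudouridine synthase of the large ribosomal RNA, had 26.9, 31.6, 27.5 and 28.2 CPM with siGOLM1-1, 11.5, 11.1, 10.4 and 10.5 CPM with siGOLM1-2 and 23.8, 25.8, 29.1 and 27.1 CPM in control, and was lower with siGOLM1-2 in every library (-1.28 ± 0.08, adjusted p = 1.28e-07). METTL15, a methyltransferase of the small ribosomal RNA, was also lower with siGOLM1-2 (-0.88, adjusted p = 1.41e-06). With siGOLM1-1, MPV17L2 (-0.83, adjusted p = 5.68e-06) and ERAL1, a GTPase that chaperones the small ribosomal RNA (-0.58, adjusted p = 2.39e-05), were lower.

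Of 20 translation factors, 3 were higher and 9 lower with siGOLM1-1 and 3 were higher and 7 lower with siGOLM1-2, with medians of -0.21 and -0.17. The share called was 60% with siGOLM1-1 and 50% with siGOLM1-2, beside the same 47.5% and 45% of all genes. MRRF, the factor that recycles ribosomes, had 30.6, 30.1, 26.8 and 28.4 CPM with siGOLM1-1, 41.5, 41.3, 40.2 and 40.3 CPM with siGOLM1-2 and 62.9, 58.8, 64.9 and 63.3 CPM in control. The 3 groups did not overlap, at -1.11 ± 0.06 (log2, SE; adjusted p = 2.05e-08) and -0.61 ± 0.06 (adjusted p = 5.38e-06). MTFMT, which formylates the initiator tRNA, was higher with both siRNAs, at 0.63 ± 0.07 and 0.59 ± 0.07 (adjusted p 1.29e-05 and 3.1e-05).

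In mitochondrial transcription and RNA processing, 5 of 17 genes were lower and 12 not called with siGOLM1-1 (higher calls were 0 in edgeR, also at an unadjusted p under 0.05, and 0 in DESeq2 and limma), and 1 was higher and 10 were lower with siGOLM1-2, with medians of -0.16 and -0.32. That is 29.4% called with siGOLM1-1 and 64.7% with siGOLM1-2, beside 47.5% and 45% of all genes. FASTKD1 and TBRG4, related RNA-binding proteins of mitochondria, were lower with siGOLM1-1, at -0.59 and -0.82 (adjusted p 0.00023 and 7.11e-07), and with siGOLM1-2, at -0.52 and -0.37 (adjusted p 0.000712 and 0.000762). POLRMT, the mitochondrial RNA polymerase, was lower with siGOLM1-2, at -0.36 (adjusted p = 0.00122). A list of 11 genes was drawn up for regulators of nuclear mitochondrial genes, although it also holds the matrix protein C1QBP. Of these 11, 2 were higher and 4 lower with siGOLM1-1 and 2 were higher and 5 lower with siGOLM1-2. That is 54.5% and 63.6% called beside 47.5% and 45% of all genes. GABPA, the subunit of GABP that binds the ETS letters, had 23.3, 20.6, 24.4 and 18.7 CPM with siGOLM1-1, 12.9, 13.9, 13.9 and 12.01 CPM with siGOLM1-2 and 20.9, 23.2, 20.7 and 21.3 CPM in control. It was lower with siGOLM1-2 alone (-0.71 ± 0.09, adjusted p = 4.32e-05; siGOLM1-1 against siGOLM1-2 0.72 ± 0.09, adjusted p = 1.98e-05). C1QBP, a mitochondrial matrix protein, had 141, 168, 145 and 137 CPM with siGOLM1-1, 287, 300.4, 279.8 and 341 CPM with siGOLM1-2 and 307, 287, 327 and 312 CPM in control, and was lower with siGOLM1-1 alone (-1.06 ± 0.08, adjusted p = 3.86e-07; against siGOLM1-2 -1.03 ± 0.08, adjusted p = 2.92e-07). YY1, whose letters were found in 13 members' promoters, was higher with siGOLM1-1 (0.50, adjusted p = 5.7e-06), and MYC was lower (-0.57, adjusted p = 0.000117). For MYC the gap was wider against siGOLM1-2 (-0.90 ± 0.09, adjusted p = 1.4e-06), so that its fall was not shared by siGOLM1-2.

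**Figure D5:**
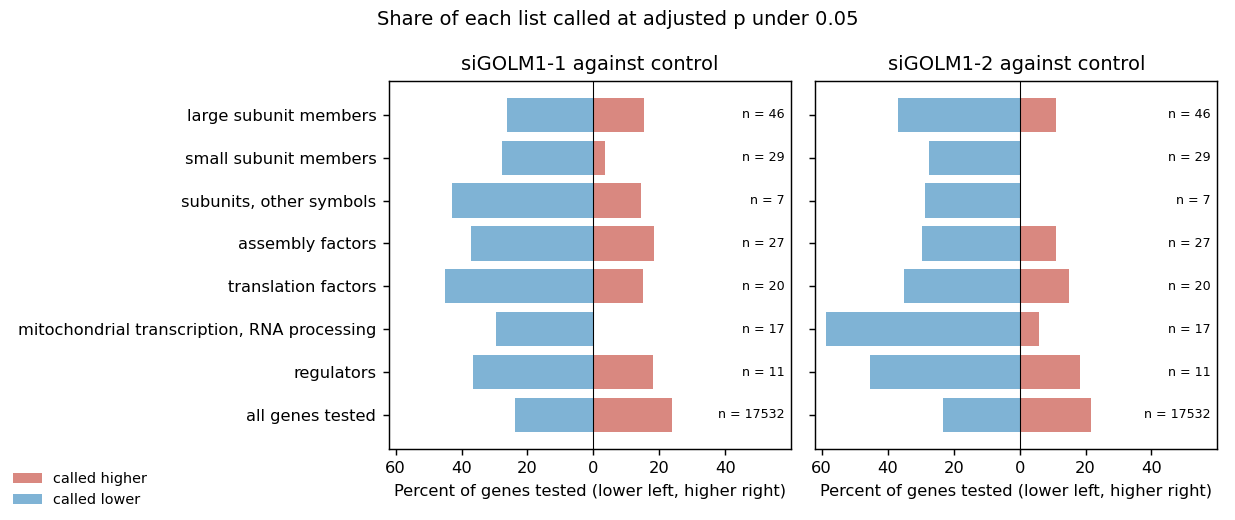
Percent of each gene list called lower (blue, left of 0) and higher (red, right of 0) with siGOLM1-1 (left panel) and siGOLM1-2 (right panel) against control, with the number tested at the right. With siGOLM1-1, 26.1% of large and 27.6% of small subunit members were called lower, beside 23.8% of all genes, and with siGOLM1-2 the lower calls were 37% of large and 27.6% of small subunit members and 58.8% of the 17 mitochondrial transcription and RNA processing genes, beside 23.2% of all genes.

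The ribosomal RNAs of the mitochondrial ribosome were looked at after other values had been seen. MT-RNR1, the small subunit RNA, averaged 822 ± 71.0 CPM with siGOLM1-1, 779 ± 171 CPM with siGOLM1-2 and 1132 ± 247 CPM in control (SD, n = 4). MT-RNR2, the large subunit RNA, averaged 6500 ± 1010 CPM with siGOLM1-1, 7943 ± 1171 CPM with siGOLM1-2 and 9214 ± 1935 CPM in control. Log2 fold changes were -0.46 ± 0.17 and -0.50 ± 0.16 with siGOLM1-1 (adjusted p 0.0389 and 0.0176) and -0.54 ± 0.17 and -0.21 ± 0.16 with siGOLM1-2 (adjusted p 0.02 and 0.29). Libraries made with an mRNA kit measure these RNAs only in so far as they are captured. Of 25 mitochondrial transcripts tested, 13 were lower and 12 not called with siGOLM1-1, and 1 was lower and 24 not called with siGOLM1-2. That is 52% called with siGOLM1-1 and 4% with siGOLM1-2, beside 47.5% and 45% of all genes. Libraries of siGOLM1-1 and control did not overlap for 12% of these transcripts, against 41% of all genes. Higher calls were 0 with each siRNA in edgeR, also at an unadjusted p under 0.05, and 0 in DESeq2 and limma. Of 78 cytosolic ribosomal protein genes tested, 5 were higher and 11 lower with siGOLM1-1 and 7 were higher and 10 lower with siGOLM1-2. Their shares called were 20.5% and 21.8%, beside the same 47.5% and 45% of all genes.

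In the authors' deposited tables, 8 members were higher and 18 lower with siGOLM1-1 and 6 were higher and 21 lower with siGOLM1-2. These counts are given without the share of all genes called by the authors. Of the edgeR calls, 26 of 28 with siGOLM1-1 and 26 of 30 with siGOLM1-2 had the same direction and an adjusted p under 0.05 in the authors' deposited tables, and none had the opposite one.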

How the data were processed

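RNA was measured in 12 libraries of A549 cells, 4 per group. Per the labels' protocols, the kit selected mRNA and kept strand, and both fragment ends were read on a NovaSeq X Plus. Reads were demultiplexed with bcl2fastq 2.20 and aligned with STAR 2.7.3 to hg19, and DESeq2 1.24.0 is named too, per the submitters' processing notes. The tool that counted reads, its gene annotation and its strandedness are not given in the sources used here, so overlapping and antisense genes are uncertain. The authors deposited raw counts per gene. Their deposited result tables hold log2 fold changes with standard errors, p-values and a Wald score, per the file headers, and were used only to compare calls.

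Genes were kept with filterByExpr and scaled with TMM factors, and all 12 libraries entered one edgeR 4.0.16 quasi-likelihood fit in R 4.3.3 with 9 residual degrees of freedom and Benjamini-Hochberg adjustment over 17532 genes. SEs are the log2 fold change over the root of the F statistic. CPM uses totals scaled by TMM. Alternatives used limma 3.58.1, DESeq2 1.42.0 and sva 3.50.0. The members, the gene lists and the naming rule were chosen with earlier results of these data known. By that rule, library values were given for the 5 members per subunit with the smallest p among those called in each comparison and for a few set members, and for up to 3 called genes with the smallest p from each other list, of which only some are printed; MRPS33 was added after its values were seen. Computations were tested on simulated counts for siGOLM1-1 against control, with 17282 genes tested. Of 100 genes changed by 0.5 (log2) 37% were called in the right direction, and of 100 changed by 1, 73%. These were the only genes changed, drawn from all genes in the simulation, while 47.5% of all genes were called with siGOLM1-1 in the data. The adjusted p was thus harder to pass in the simulation. Its shares do not give how often changes of members were missed. One gene that the rule for likeness names is not reported here.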

Additional observations from a re-analysis of the deposited data

Results flagged for a closer look

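In 8 of 90 groups of 4 libraries, 1 library stood far from the other 3 by its gap over the group's range, where chance gives about 1 in 20. GOLM1 was at 37.5 CPM in siGOLM1-1 replicate 4, within a group of very small spread (up to 38.9 CPM). MRPS2 was at 42.5 CPM in siGOLM1-1 replicate 1, below the others of its group, which were at 48.8 to 49.4 CPM. In siGOLM1-1 replicate 2, MRPL47 was at 31.8 CPM, MRPS23 at 89.9 CPM, MRPL49 at 69.2 CPM and MRPS12 at 111.1 CPM, each above the rest of its group. In siGOLM1-2 replicate 4, MRPL34 was at 48.6 CPM and MRPS18A at 29.3 CPM, again above the rest. Replicate 2 of siGOLM1-1 and replicate 4 of siGOLM1-2 were also the libraries of their groups with the highest mean standardised member level, 0.81 and 0.53 SD.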

How the results depend on the processing

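Of 23 alternatives per comparison, 14, 14 and 16 members were called in the same direction in all of them with siGOLM1-1, with siGOLM1-2 and between the siRNAs, and no member called in the original fit was called in the opposite direction. With library totals as the only scaling, siGOLM1-1 had 4 members higher, all 4 in the large and 0 in the small subunit, and 14 small subunit genes lower. siGOLM1-2 then had 11 higher (9 large, 2 small) and 11 large subunit genes lower. Between the siRNAs that scaling gave 6 higher (4 large, 2 small) and 28 lower (17 large), with medians of -0.10 for the large and -0.13 for the small subunit. With control replicates 1 and 2 alone, siGOLM1-1 had 0 small subunit genes higher and 13 members lower, 5 of them small, with a small subunit median of -0.076, and siGOLM1-2 had 12 lower, 8 large and 4 small, with a small subunit median of 0.038. With control replicates 3 and 4 alone, siGOLM1-1 had 3 members higher, 2 of them large, and siGOLM1-2 had 1 small subunit gene higher. A surrogate variable gave 14 small subunit genes lower with siGOLM1-1, 8 members higher (2 small) with siGOLM1-2 and 13 large subunit genes lower between the siRNAs. DESeq2's Wald test gave 8 higher with siGOLM1-2, 2 of them small. The 8 libraries of the groups compared alone gave 8 higher with siGOLM1-2, 1 of them small. By structure the subunit ratio was 1.63 with siGOLM1-1, 1.48 with siGOLM1-2 and 1.47 in control, the control small subunit sum was 1627 CPM, and without the 5 small subunit genes the ratio was 1.65, 1.61 and 1.59. The cause of these shifts was not tested.

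Leaving out each library in turn gave, with siGOLM1-1, 5 to 9 members higher (4 to 7 large, 0 to 2 small) and 15 to 24 lower. With siGOLM1-2 it gave 4 to 7 higher (0 to 1 small) and 14 to 27 lower (8 to 18 large), and between the siRNAs 5 to 13 large subunit genes were lower. Same-numbered replicates did not deviate together: of 12 pairs of libraries with the same number 5 had a correlation over 0.1, from -0.26 to 0.43. With the replicate number as a block, 27, 31 and 29 members were called in the 3 comparisons, and 1 small subunit gene was higher with siGOLM1-2. At this depth, members under 1 CPM, of which MRPS24 was one, could show only large differences.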
